A study of Homo sapiens with 4 samples.

Results

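miR-143 and miR-145 are 2 microRNAs (miRNAs) made from neighbouring hairpins of 1 long noncoding RNA, CARMN. Mature hsa-miR-143-3p and hsa-miR-145-5p were followed through all 4 libraries, as 2 of the 843 entries listed in the count table. The pair was chosen by measured values, because the counts of miR-143-3p with the positive probe exceeded those with the negative one. Its probe ratios are therefore given as a description with no test, and so are those of miR-145-5p, which come from the same contrast.

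Each library held the small RNA left on streptavidin beads after a pull-down with a biotinylated RNA probe directed to the untranslated end of the fibronectin mRNA, the FN1 3′-UTR. The lysates came from HGC27 and AGS cells, both established gastric cancer lines. Each line had been made to overexpress the FN1 3′-UTR with a lentivirus and selected with puromycin, and no library of cells without this overexpression was used here. The groups were HGC27 with the negative probe, HGC27 with the positive probe, AGS with the negative probe and AGS with the positive probe, with 1 library in each. The labels put a transcript or its antisense RNA on the beads, and the study's methods speak of antisense RNA. Neither says whether the positive or the negative probe was meant, so the ratios are not assigned to either strand. The values describe RNA recovered on beads and not its level in the cell.

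A miRNA hairpin is cut by Drosha and Dicer into a short duplex, of which 1 arm is usually loaded into an Argonaute protein while the other is degraded. Bases 2 to 8 of the loaded arm, the seed, pair with target mRNAs. miR-143 and miR-145 are best known from smooth muscle and from fibroblasts and other mesenchymal cells. There they favour the contractile smooth muscle state, and they are often reported at low levels in epithelial tumours. The 3p arm is usually the main product of miR-143 and the 5p arm that of miR-145.

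The 4 mature arms are shown 5′ to 3′ with the seed in capitals, because the comparison of the members rests on reads that these sequences keep apart. The deposited sequences were the same as those of RefSeq (GRCh38.p14) for 4 of 4 arms.

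hsa-miR-143-5p: gGUGCAGUgcugcaucucuggu
hsa-miR-143-3p: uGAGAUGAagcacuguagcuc
hsa-miR-145-5p: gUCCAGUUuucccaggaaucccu
hsa-miR-145-3p: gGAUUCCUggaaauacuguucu

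The 4 arms carried 4 different seeds. The number of other entries with the same seed as an arm was 0 for each of them, and 0 predicted entries shared 16 or more consecutive bases with an arm. The counts of the members were thus not split over near-identical names in this table. On GRCh38.p14, miR-143-3p lies on chromosome 5 from 149428978 to 149428998 and miR-145-5p from 149430661 to 149430683, both on the plus strand. Their hairpins MIR143 and MIR145 are 106 and 88 bases long and 1622 bases apart. Both fall inside CARMN, which spans 149406845 to 149432836.

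The members differed widely in abundance. miR-143-3p had 1999 counts with the negative and 9123 with the positive probe in HGC27, and 65 and 145 in AGS. miR-145-5p had 4 and 5 counts in HGC27 and a blank in both AGS libraries. The lowest count listed anywhere in the table was 2, so a blank stands for fewer than 2 counts and not for a measured 0. Both members were therefore seen in HGC27, and only miR-143-3p was listed in AGS.

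As a share of all miRNA counts, miR-143-3p took 0.138% (Wilson 95% CI 0.132 to 0.144) with the negative probe and 0.703% (0.689 to 0.718) with the positive probe in HGC27. In AGS its share was 0.00220% (0.00173 to 0.00280) and 0.00949% (0.00807 to 0.0112). The intervals of the 4 libraries did not overlap, but they cover counting error only. Between the probes this is no test, since that contrast had entered the choice of the pair. The order of the shares was HGC27 positive, HGC27 negative, AGS positive, AGS negative. By rank of counts miR-143-3p stood at place 49 of 574 listed entries and place 17 of 609 in HGC27, and at 98 of 342 and 71 of 361 in AGS, with the negative probe first each time.

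miR-145-5p took 0.000275% of the counts (Wilson 95% CI 0.000107 to 0.000708) with the negative probe in HGC27 and 0.000386% (0.000165 to 0.000903) with the positive probe. These intervals overlapped almost fully. It stood at place 392 of 574 and 376 of 609. A count of 2, the lowest listed, would be 6.77e-05% of the AGS negative probe library and 0.000131% of the AGS positive probe library. The share in HGC27 was thus within reach of the depth in AGS, but only by a few counts.

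**Figure D1:**
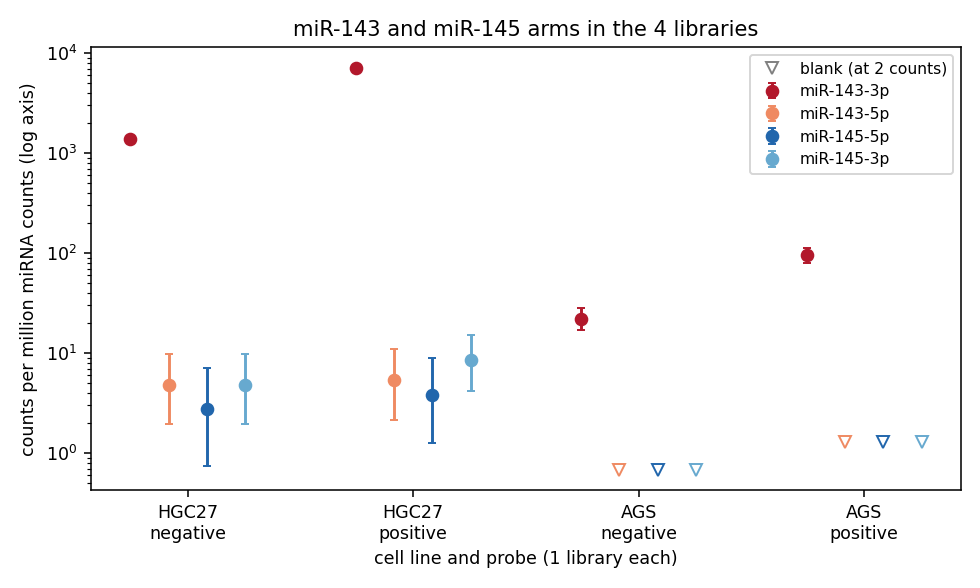
Level of the 4 arms of miR-143 and miR-145 in each library, as counts scaled to 1000000 miRNA counts per library on a log axis, with exact 95% counting intervals as bars and open triangles at the level of 2 counts where an entry was blank. miR-143-3p lies far above the other 3 arms in HGC27 and is the only arm listed in AGS, with 65 and 145 counts.

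Set against each other inside a library, the members gave a ratio that no scaling of libraries can change. In HGC27 there were 499.75 counts of miR-143-3p for each count of miR-145-5p with the negative probe (exact 95% CI 195 to 1836). With the positive probe there were 1825 (782 to 5621). The 2 intervals overlapped between 782 and 1836, since miR-145-5p had only 4 and 5 counts. In AGS, with a blank taken as 1 count, the lower exact bound of this ratio was 11.3 with the negative and 25.6 with the positive probe. miR-143-3p was thus the more abundant member in all 4 libraries, also when 1 count was granted to miR-145-5p where it was blank.

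The other arms of the 2 hairpins were scarce as well. miR-143-5p had 7 counts with each probe in HGC27 and a blank with each probe in AGS. miR-143-3p outnumbered it 286 to 1 with the negative probe (exact 95% CI 138 to 711) and 1303 to 1 with the positive probe (632 to 3243). These intervals overlapped too. The 3p arm was the main product of miR-143 in these libraries, which is the arm usually loaded.

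miR-145-3p had 7 and 11 counts in HGC27 and a blank in both AGS libraries. It was listed with more counts than miR-145-5p, the arm usually loaded, with both probes. Of the counts of both miR-145 arms, miR-145-5p took 36.4% with the negative probe (exact 95% CI 10.9 to 69.2) and 31.2% with the positive probe (11 to 58.7). Both intervals include equal amounts of the arms, so an excess of the 3p arm was not detectable at this depth. Summed over both arms, miR-143 had 182 counts for each miR-145 count with the negative probe (102 to 366) and 571 with the positive probe (351 to 999).

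The probe comparison sets the recovery with the positive probe against that with the negative probe. It was made on the normalized score that the authors deposited, tags per 1000000 rounded to whole numbers, as the score + 1 over the score + 1. Entries count as enriched from a ratio of 2 upwards and as depleted from 0.5 downwards. In HGC27 the score of miR-143-3p was 688 with the negative and 3301 with the positive probe, a ratio of 4.79 (exact 95% counting interval of the unrounded fold 4.57 to 5.04). In AGS it was 9 and 34, a ratio of 3.50 (2.78 to 5.10). The intervals of the lines overlapped, and whether the ratios differ between the lines was not tested.

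miR-145-5p had a score of 1 and of 2 in HGC27, a ratio of 1.5 that rests on 4 and 5 counts. The exact interval of its unrounded fold, 0.283 to 6.63, includes both no change and the fold of miR-143-3p. In AGS it had no ratio. miR-143-5p had a ratio of 1.33 in HGC27 (interval of the fold 0.315 to 3.51), which lay below the interval of miR-143-3p. miR-145-3p had a ratio of 1.67 (0.585 to 5.03). The intervals of miR-145-5p and miR-145-3p overlapped that of miR-143-3p and included 1. That of miR-143-5p, on 7 counts with each probe, also included 1. Since miR-143-3p was chosen on this contrast, whether the arms differ was not tested.

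Many entries passed the same threshold. In HGC27, 37.5% of the 755 entries listed in either library were enriched, and 28.1% of the 366 with at least 10 counts in a library. In AGS the shares were 39.4% of 459 and 40.4% of 230. miR-143-3p was enriched in both lines. miR-145-5p did not reach the threshold in HGC27, on 4 and 5 counts, and had no ratio in AGS. Among entries with at least 10 counts, miR-143-3p had the 36th highest of 366 ratios in HGC27 and the 66th highest of 230 in AGS. Of the 193 entries with at least 10 counts in both lines, 41 had a ratio of at least 2 in both and 14 had a higher ratio than miR-143-3p in both. Its place was thus high in HGC27 but not among the leading entries of AGS.

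**Figure D2:**
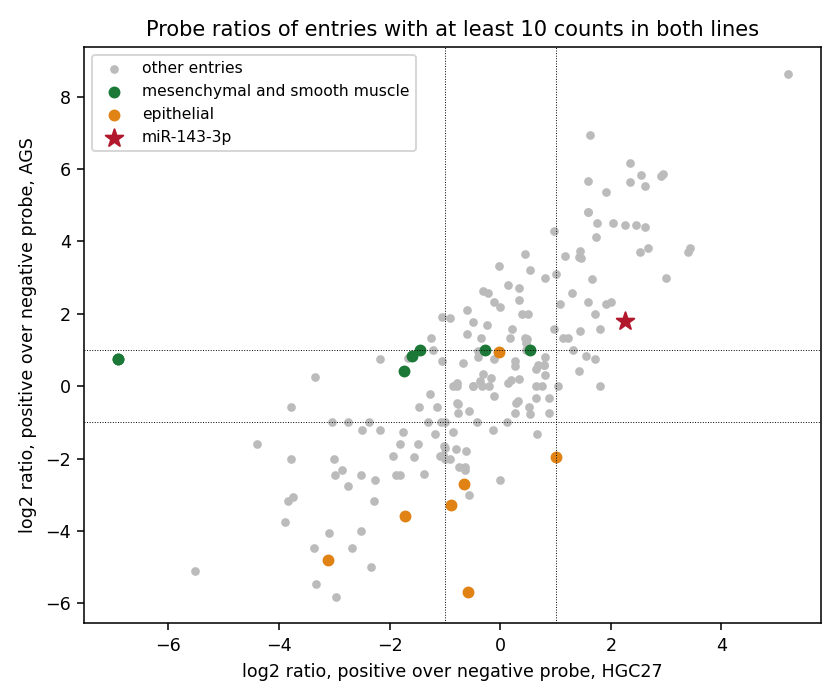
Log2 ratio of the positive over the negative probe in HGC27 (x axis) and AGS (y axis) for the 193 entries with at least 10 counts in both lines, each point 1 entry, with dotted lines at log2 ratios of -1 and 1. miR-143-3p (star, 2.26 and 1.81) lies to the upper right of both dotted lines at 1, whereas the green mesenchymal and orange epithelial entries do not. The star had been chosen on this contrast.

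The size of the ratio in AGS depended on the scaling. There, miR-372-3p took 80.8% of the negative and 37.5% of the positive probe counts, so the other entries shared a smaller part of the negative probe library. When the totals were taken without miR-372-3p, the AGS ratio of miR-143-3p was 1.32, below the threshold. Under TMM (trimmed mean of M values, edgeR's scaling) it was 2.26, and on raw counts 2.21. In HGC27 the ratio stayed between 4.56 and 5.46 under all scalings and pseudocounts tried. None of these left out miR-148a-3p, which took 50.6% of the negative and 35.0% of the positive probe counts in HGC27. How far the HGC27 ratio depends on that entry was not tested.

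Against the median of the entries with at least 10 counts the probe ratios were steadier. In log2 units miR-143-3p lay between 2.33 and 2.38 above that median in HGC27. In AGS it lay between 1.02 and 1.40 above it, the lowest with a pseudocount of 10. The median itself moved from -0.95 to 0.69 in AGS with the scaling, and from -0.17 to 0.08 in HGC27.

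**Figure D3:**
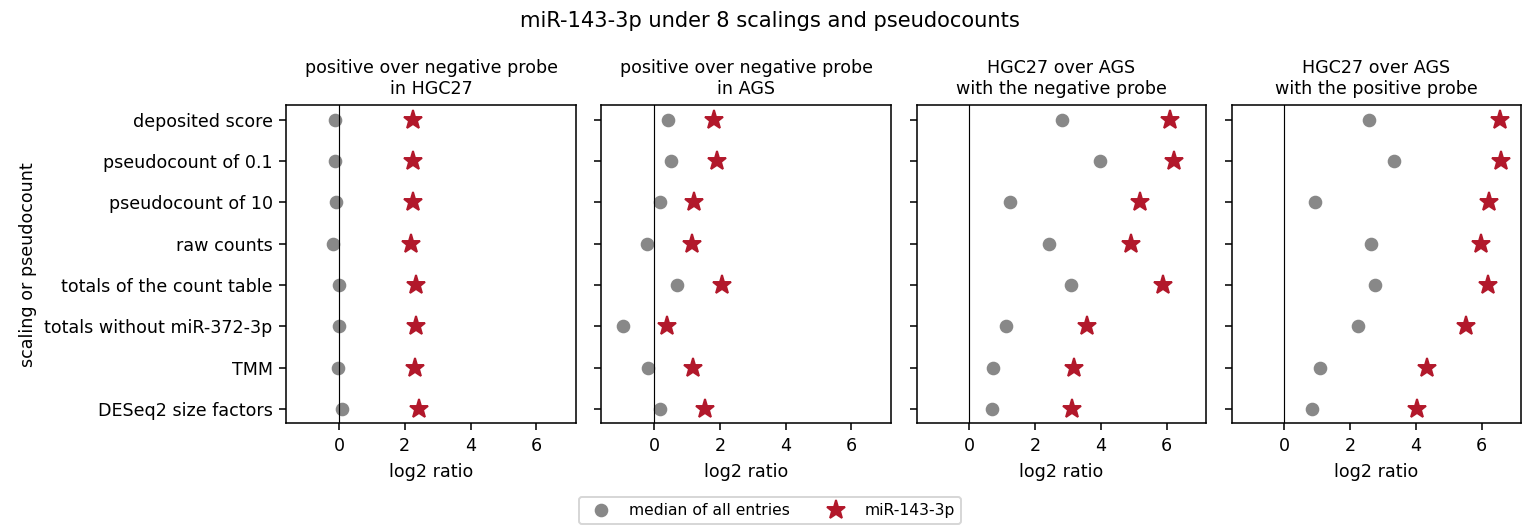
Log2 ratio of miR-143-3p (star) and median of all entries with at least 10 counts (circle) in the 4 comparisons, under the deposited score and 7 other scalings or pseudocounts (rows). In the probe comparisons the star keeps a gap of 2.33 to 2.38 (HGC27) and 1.02 to 1.40 (AGS) to the circle, while in the line comparisons the gap ranges from 2.26 to 3.96 with the negative and from 3.18 to 5.31 with the positive probe.

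The lines were compared with each other at the same probe, a contrast that did not enter the choice of the pair. The score of miR-143-3p was 68.9 times higher in HGC27 than in AGS with the negative probe (exact 95% interval of the unrounded fold 59.3 to 98.8) and 94.3 times higher with the positive probe (82.6 to 115). Such differences were common, since 86.0% of 615 entries with the negative and 75.3% of 684 with the positive probe had a ratio of at least 2 in this direction. The scaling set much of the size. Under TMM the ratios were 9.14 and 20.3.

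For miR-145-5p the same comparison was limited by depth. On the scaling of the deposited score, with a floor of 3 counts in AGS, its HGC27 level was at least 3.29-fold higher for the negative probe. For the positive probe it was at least 2.58-fold higher. With the blank taken as 1 count, the exact 95% intervals reached down to 0.978 and 0.865, so no difference between the lines was detectable for it. The same bounds were 2.22 and 1.39 for miR-143-5p, and 2.22 and 2.47 for miR-145-3p. Both of these lay above 1 on that scaling, on 7 to 11 counts in HGC27. The floors and bounds of this paragraph were not recomputed under other scalings. TMM lowered the line ratios of miR-143-3p from 68.9 to 9.14 (negative probe) and from 94.3 to 20.3 (positive probe). Whether the bounds of the scarce arms stay above 1 under TMM was not tested.

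The line effect was also fitted across all 4 libraries on the raw counts, with the probe as covariate. Each line has 2 libraries that differ in probe, used in place of replicates, and the residual degrees of freedom come to 1. The p-value rests on the spread left after line and probe, which may be technical. With infinite prior degrees of freedom this spread was shared across entries, so that of miR-143-3p alone did not set it. edgeR's quasi-likelihood test with Benjamini-Hochberg adjustment over 271 entries gave miR-143-3p a log2 fold change of 3.55 ± 1.29 (SE, n = 2 libraries per line), higher in HGC27 with both probes (adjusted p = 0.0231). In the same fit 22.1% of the entries were called higher in HGC27, 60 of 271, of which 37 were blank in both AGS libraries. By fitted fold change miR-143-3p stood at place 58 of 271. Its call was lost with no filter on low counts (adjusted p = 0.187), with at least 10 counts in every library (0.0648) and without the probe covariate (0.0614). miR-145-5p did not pass the filter on low counts, nor did the other arms of the hairpins.

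**Figure D4:**
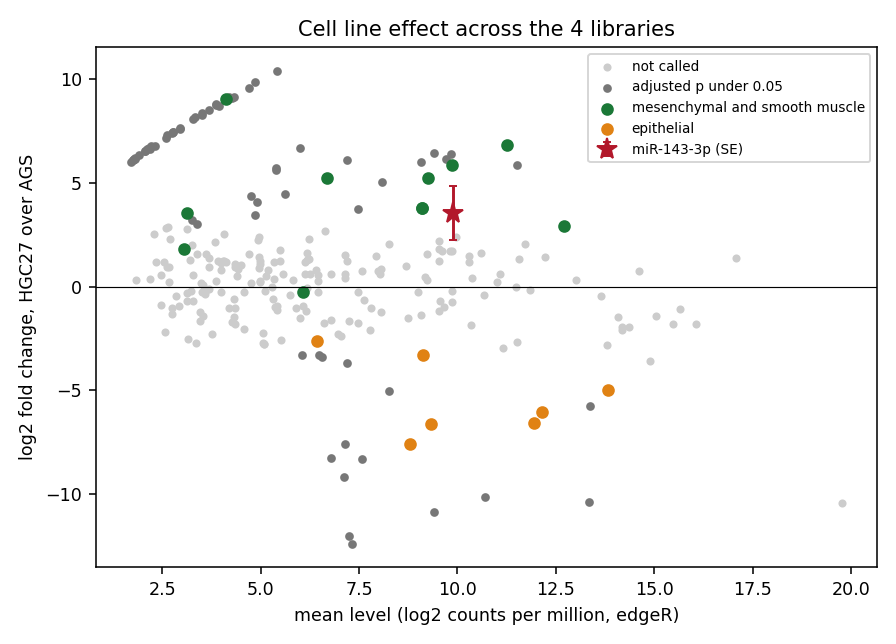
Log2 fold change of HGC27 over AGS against mean level (log2 of counts scaled to 1000000) for the 271 entries tested in edgeR with the probe as covariate, each point 1 entry. miR-143-3p (star, 3.55, bar of 1 SE) lies among the mesenchymal and smooth muscle entries, all above 0 but miR-1-3p (-0.25). The 7 epithelial entries lie below 0.

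Lists of miRNAs by tissue association, chosen with earlier results of these data known, were read beside the pair. The mesenchymal and smooth muscle list also holds miR-143-5p and miR-145-3p, the other arms of the same hairpins, which did not pass the filter for the line test. miR-199a-3p and, as another entry, miR-199b-3p have the same sequence and the same counts, so they are not separate measurements. Of 17 mesenchymal and smooth muscle miRNAs, 11 were tested between the lines. In HGC27, 6 were higher and 0 lower, against 60 and 21 of all 271 entries. The median log2 fold change of the list was 3.79, against 0.63 for all 271 entries. With entries blank throughout a line set to a floor of 3 counts per library, the medians were 3.79 and 0.57. With miR-199b-3p dropped as a copy, a choice made after seeing the data, 6 of 10 were higher, with a median of 4.52, or 3.66 at the floor. miR-125b-5p (5.88 ± 1.42 SE, adjusted p = 0.000533 in edgeR) and miR-10b-5p (5.24 ± 1.34, adjusted p = 0.000993) were among those called. miR-100-5p was not called, at 2.93 ± 1.48 (adjusted p = 0.127 in edgeR), nor was miR-1-3p, at -0.25 ± 1.08 (adjusted p = 0.871). miR-133a-3p and miR-133b, which mark differentiated muscle, were listed in no library.

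Of 11 epithelial miRNAs, 7 were tested. In HGC27, 0 were higher and 6 lower, against 60 and 21 of all 271 entries. The median of the list was -6.04, against 0.63 for all entries. They included miR-200c-3p (-5.00 ± 1.91, adjusted p = 0.0325 in edgeR) and miR-203a-3p (-6.04 ± 1.69, adjusted p = 0.00246), which help hold the epithelial state. The medians of both lists kept their sign under the other fits, from 3.35 to 6.32 and from -7.28 to -3.49. For the probe contrast, 2 of 8 epithelial entries listed in HGC27 were enriched and 2 depleted, against 283 and 257 of all 755. In AGS, 1 of 9 was enriched and 7 depleted, against 181 and 104 of 459. With the negative and positive probe, HGC27 over AGS was 0.101 and 0.524 for miR-200c-3p. For miR-203a-3p it was 0.0645 and 0.208. The line difference of these 2 was thus smaller with the positive probe.

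Between the probes, the mesenchymal list as a whole did not share the pattern of miR-143-3p in HGC27. There, 2 of its 15 listed members were enriched and 8 depleted, against 283 enriched and 257 depleted of all 755 entries listed. The median log2 ratio of the list was -1.0. That median was the value of miR-497-5p, which had 3 counts with the negative probe and a blank with the positive one. With miR-199b-3p dropped, 2 of 14 were enriched and 7 depleted, with a median of -0.64. Those other arms of miR-143 and miR-145 were neither enriched nor depleted. In AGS, 3 of 10 were enriched and 0 depleted, against 181 and 104 of 459. The AGS median of the list, 0.78, turned to -0.46 when the totals excluded miR-372-3p. The summed score of this list was 39203 and 14449 in HGC27, and 184 and 367 in AGS, for the negative and positive probe. miR-10b-5p, a HOX-embedded miRNA, had a log2 ratio of 0.53 in HGC27, and miR-99a-5p one of -1.75. The list members miR-199a-5p and miR-199b-5p had 0.81 and 1.09 there. miR-143-3p, at 2.26, lay above all 15 listed members, but it had been chosen on this contrast, so this is a description and no test.

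Blood cell miRNAs were checked as a sign of other RNA in the lysate. Of 9 such miRNAs, 3 were listed in HGC27 and 2 in AGS, and miR-451a, miR-223-3p and miR-142-5p were listed in no library. The summed score of the list was 276 and 479 in HGC27, almost all of it miR-126-3p, an endothelial miRNA. In AGS it was 4 and 11. Their part in the values of miR-143-3p was not tested.

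The entries whose pattern over the 4 libraries was most like that of miR-143-3p were sought among 359 other known miRNAs with at least 10 counts summed. Likeness was the Euclidean distance of log2(score + 1) after each entry's mean was subtracted. The nearest was miR-126-3p at a distance of 1.35, with 795 and 1322 counts in HGC27 and 20 and 20 in AGS. miR-218-5p followed at 1.42, with 1090 and 2274 counts in HGC27 and 10 and 16 in AGS. miR-199a-5p, a mesenchymal miRNA, was next at 1.49, with 472 and 787 against 3 and 6. miR-363-3p at 1.88 and miR-204-5p at 1.96 completed the first 5, and both were blank in AGS.

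All 5 were much higher in HGC27 and somewhat higher with the positive probe there, with log2 ratios of 0.80 to 1.49 against 2.26 for miR-143-3p. They had been picked for likeness over these same libraries, so the shared pattern follows from the choice. miR-145-5p has 9 counts in all, under the minimum of 10, so it was given neither a place in this order nor an order of its own.

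The genes within 1 Mb of MIR143 in RefSeq that hold other miRNAs are MIR584 and MIR378A. miR-584-5p had 2 counts in the HGC27 negative probe library and was blank elsewhere. miR-378a-3p had 21557 and 14653 counts in HGC27, a log2 ratio of -0.48, and 792 and 1628 in AGS, a log2 ratio of 1.78. miR-378a-5p, its minor arm, had 176 and 934 counts in HGC27 and 7 and 183 in AGS. Being close to MIR143 on chromosome 5 thus went with levels from a blank to above that of miR-143-3p itself.

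Both probes were directed to the FN1 3′-UTR, so the 1101 bases after the FN1 stop codon (GENCODE v29, GRCh38, chromosome 2 from 215360454 to 215361554, minus strand) were searched for seed matches of both members. The motif TCATCTC, which pairs with bases 2 to 8 of miR-143-3p, occurred 1 time on the transcript strand, and AACTGGA, which pairs with those of miR-145-5p, occurred 1 time. On the antisense strand there were 0 matches of either. The sites are shown 5′ to 3′ on the transcript strand with the match in capitals, because each member had 1 of them.

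miR-143-3p site, chr2:215360679-215360703: ggtttttgtcactTCATCTCttcac
miR-145-5p site, chr2:215361490-215361514: caagatccatctaAACTGGAgtgat

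Neither match was followed by an A, the base that often flanks strong sites. Of 9467 genes with a 3′-UTR at least as long, 9.51% held TCATCTC and 10.2% held AACTGGA in the first 1101 bases. The antisense motifs GAGATGA and TCCAGTT were held by 9.83% and 10.8%. A match is a string of letters and was not tested as a binding site.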

How the data were processed

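RNA pull-down material of 4 libraries, 1 per group, was sequenced. The submitters' processing notes name cutadapt 1.9.3, Novoalign 3.02.12 and hg38. The authors deposited raw tag counts and a normalized score (tags per 1000000, rounded), with 1 row per mature miRNA and precursor. The 901 rows were collapsed to 843 names (570 known, 273 predicted), and blanks were taken as 0 unless another value is stated. Totals were 1296853 to 2955078 counts, 35.7% to 50.0% of the divisors recovered from the score. Why they differ is not given in the sources used here.

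Ratios used score + 1. Intervals are exact (binomial, on counts and recovered divisors) or Wilson, and cover counting error only, since reads had no molecular identifiers. The line effect was fitted in edgeR 4.0.16 (R 4.3.3, TMM, filterByExpr), with limma 3.58.1 and DESeq2 1.42.0 as alternatives. Prior degrees of freedom were infinite (common coefficient of variation 0.612). Each SE given for edgeR is the absolute log2 fold change divided by the square root of the F statistic. It is not a spread between the libraries of a line. Members and lists were chosen with earlier results of these data known. Named entries were the members, their other arms, entries sharing a seed or 16 bases, the 5 nearest patterns, neighbours within 1 Mb, the 4 most abundant of each list, and miR-372-3p. miR-148a-3p was also named, as the most abundant entry of the HGC27 libraries. Names added after values were seen are miR-133a-3p, miR-133b, miR-451a, miR-199b-3p, miR-199b-5p, miR-497-5p, miR-223-3p, miR-142-5p, miR-1-3p, miR-429 and miR-199a-3p.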

Additional observations from a re-analysis of the deposited data

Results flagged for a closer look

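For 10 entries of the lists, the neighbours or the most abundant miRNAs, the log2 probe ratio had opposite signs in HGC27 and AGS. The differences rest on 1 library per group and were not tested. AGS minus HGC27, the difference was 2.44 for miR-100-5p (-1.44 in HGC27 and 1.00 in AGS), 2.16 for miR-99a-5p (-1.75 and 0.42) and 1.28 for miR-125b-5p (-0.28 and 1.00). It was 7.65 for miR-199a-3p (-6.91 and 0.74, on 7692 and 58 counts in HGC27) and the same for its copy miR-199b-3p, 2.43 for miR-1-3p (-1.6 and 0.83) and -2.94 for miR-429 (1.00 and -1.94, on 6 and 13 counts in HGC27). It was 0.97 for miR-192-5p (-0.02 and 0.94), 2.27 for miR-378a-3p (-0.48 and 1.78) and -1.98 for miR-372-3p (0.66 and -1.31). With totals that exclude miR-372-3p, the AGS ratios of miR-100-5p, miR-99a-5p and miR-125b-5p were -0.50, -0.95 and -0.37, the same sign as in HGC27. Those of miR-199a-3p and miR-1-3p were -0.29 and -0.55, again the sign of HGC27, and miR-429 kept opposite signs at 1.11 and -3.47. Under that scaling miR-192-5p had 0.07 in HGC27 and -0.55 in AGS, miR-378a-3p -0.39 and 0.29, and miR-372-3p 0.76 and -2.81. miR-143-3p had the same sign in both lines, and miR-145-5p had a ratio in HGC27 only.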

How the results depend on the processing

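The direction of each result on the members held in the alternative runs made for it, and sizes did not. For miR-145-5p, blank in AGS, the line comparison at each probe was not rerun under other scalings. For miR-143-3p the log2 probe ratio in HGC27 (2.26) was 2.19 on raw counts, 2.35 with the totals of the count table, 2.36 without miR-372-3p and 2.45 with DESeq2 size factors. In AGS (1.81) it was 1.21 with a pseudocount of 10, 1.15 on raw counts, 0.40 without miR-372-3p and 1.17 under TMM. The log2 ratio of HGC27 over AGS with the negative probe (6.11) was 5.20, 4.92, 3.58 and 3.19 under the same 4 settings and 3.13 with DESeq2 size factors. With the positive probe (6.56) it was 6.23, 5.97, 5.53, 4.34 and 4.04, and 6.20 with the totals of the count table. The log2 ratio of the members in HGC27 was 7.45 and 9.11 when both arms were summed, against 8.80 and 10.70.

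Enriched and depleted entries in HGC27 (283 and 257) were 103 and 122 with at least 10 counts and 42 and 63 with a pseudocount of 10. With known miRNAs only, 157 were enriched in HGC27 and 118 in AGS. In AGS (181 and 104) 93 were enriched with at least 10 counts, and 55 were enriched and 36 depleted with a pseudocount of 10. The 81 calls between the lines (60 higher and 21 lower in HGC27) became 169 with library totals (154 higher), 15 with at least 10 counts in every library (10 and 5) and 0 with no filter in edgeR (0 and 0), where 95 had an unadjusted p under 0.05. DESeq2 gave 35 higher, with 21 adjusted p-values not given. The log2 fold change of miR-143-3p was 3.78 with no filter, 3.94 with at least 10 counts and 3.94 without the probe covariate, no longer called. It was 3.21 without the positive and 4.35 without the negative probe libraries, with no test. Adjusted p ranged from 0.000364 in DESeq2 to 0.187. Causes were not tested. End variants could not be summed, since 0 were found. No paired analysis was possible because replicate numbers are not in the labels. The probe covariate already compares the lines within each probe.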
